A study of Mus musculus with 2 samples.

Results

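The crosslink sites described here lie in exons of long non-coding RNAs (lncRNAs) and come from iCLIP of Tia1 in mouse B cells. In iCLIP, UV light links a protein to the RNA it touches, the complex is immunoprecipitated, and reverse transcription stops beside the link, which places it to the nucleotide. A site was a member when it was in the low-FDR list pooled over both experiments (false discovery rate under 0.05), lay on the same strand in an exon of a GENCODE gene of a lncRNA type, and lay in no exon of a protein-coding gene. The types were lincRNA, antisense, processed_transcript, sense_intronic, sense_overlapping, bidirectional_promoter_lncRNA and TEC, and Malat1, Neat1, Gas5 and the Snhg genes were left out. This rule gave 3507 of 422150 pooled sites, in 217 of 13352 annotated genes. They held 8694 of 867271 pooled cDNAs, which is 1.00%. A cDNA count here is the number of unique reverse transcription products whose start marks 1 crosslinked nucleotide.

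Both samples were cytoplasmic extracts of primary splenic B cells of C57BL/6 mice, exposed to LPS at 10 µg/ml for 48 h, and they formed 1 group of 2 replicates. No untreated cells, isotype precipitate or RNA-seq library was analysed here, so neither background crosslinking nor the level of any transcript was measured. The cDNA count of a gene cannot tell apart more transcript and more crosslinking per transcript. The titles and the methods name Tia1 as the precipitated protein, while the labels list an anti-Tial1 antibody, Tial1 being a relative of Tia1, and the sources also differ in UV dose and RNase concentration. The replicate lists held 639108 cDNAs at 342732 sites and 165081 cDNAs at 93512 sites, so replicate 1 was the deeper one. In 3′UTRs, 6 of 7 B cell marker genes were bound in both replicates, with 2908 and 662 cDNAs in sum. So were 2 of 4 myeloid markers, and all 4 summed to 29 and 6. No T cell or erythroid marker was bound in both, and 4 of 5 T cell markers and both erythroid markers were at 0. Among genes of any type with an exon site, 59.8% were called in both replicates. These counts measure binding and not expression.

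LncRNAs are transcripts without a recognised long open reading frame. Some stay in the nucleus, whereas others act in the cytoplasm by binding proteins or microRNAs, or serve mainly as the precursor of small RNAs cut from their introns or exons. Tia1 takes part in stress granules, and its RNA recognition motifs prefer U-rich single-stranded RNA. Exons annotated as lncRNA can also overlap other genes, such as a transfer RNA (tRNA), a small nuclear or nucleolar RNA, a ribosomal RNA (rRNA) copy, or an mRNA that only another annotation holds.

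The sequences that carry the main contrast are those around the highest site of single genes. Each is 29 nt long with the crosslinked nucleotide in the middle, read 5′ to 3′ on the strand of the gene from the reference genome GRCm38, written as DNA with T for U, and capitals mark runs of at least 4 T. The first set was picked to show U runs under sites of leading lncRNAs.
1700020I14Rik, chr2:119599945-119599973: ttcaggTTTTTTTTTTaatgtcttccaat
AU020206, chr7:75770762-75770790: tgatgtggacTTTTTTTgtacagattaat
2900097C17Rik, chr2:156391496-156391524: TTTTTTTTTTacaTTTTgtgttaaagttg
Dleu2, chr14:61635412-61635440: atatctgataaTTTTTctatttattcttg
Gimap1os, chr6:48738684-48738712: ttccaTTTTTctctttaaggatttctctt
A530030E21Rik, chr16:19244088-19244116: ttatttaaacaTTTTTaTTTTaaTTTTTT
T made up between 48.3% (AU020206) and 69.0% (A530030E21Rik) of their bases. Not all leading lncRNAs looked like this. For 13 leading genes, both most of the sites and the highest site lay in no rRNA-like locus, small RNA gene exon or mRNA exon. Of these, 11 had such a run in this window, and Gm20559 and BE692007 had none. Gm17494 was not among the 13, because most of its sites lay in a tRNA gene. Its highest site lay outside the annotated tRNA exons, in a window without a run and with 24.1% T. T made up a median of 48.3% over the 13 windows, from 31.03% in BE692007, and 37.9% in each of AI504432, Tug1 and 2410006H16Rik.

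The second set shows highest sites that lay in the copy of another, structured RNA, picked for the lack of a run.
Gm42418, rRNA-like, chr17:39847913-39847941: ctaccctacgccggcaggcgcgggtaacc
B230208H11Rik, tRNA-Leu, chr10:12922603-12922631: ggcgttggacttaagatccaatggacata
Gm10616, tRNA-Arg, chr7:79466441-79466469: ggcgtctgacttcggatcagaagattgca
Mir155hg, microRNA 155 hairpin, chr16:84714128-84714156: gaaggctgtatgctgttaatgctaattgt
T made up 10.3% of the bases in Gm42418, 24.1% in each tRNA window and 37.9% in Mir155hg. Small RNA genes were not all poor in U at their sites. The highest site of Zfas1, inside a small nucleolar RNA, lay in a window with a run of T and 37.9% T, and U made up 41.9% of the 31 nt around the highest site of B930036N10Rik, inside a U5 small nuclear RNA gene.

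The members were divided into 4 kinds, by rRNA-like locus and by what else is annotated at the same nucleotide. The rRNA-like loci Gm42418 and Gm26917 held 753 sites and 3627 cDNAs, or 41.7% of all member cDNAs. Small RNA genes lying inside lncRNA exons held 94 sites and 632 cDNAs (7.27%). Exons that RefSeq assigns to an mRNA, although GENCODE calls the gene a lncRNA type, held 322 sites in 22 genes and 682 cDNAs (7.84%). The remaining 2338 sites lay in 194 genes and held 3753 cDNAs (43.2%). So fewer than 1 in 2 of the cDNAs counted as lncRNA binding lay outside the rRNA-like loci and away from annotated exons of small RNA genes or mRNAs on the same strand.

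The replicates differed in this makeup. Relative to all cDNAs of the replicate at pooled sites, members held 0.993% (exact 95% interval 0.969 to 1.02) in replicate 1 and 1.03% (0.982 to 1.08) in replicate 2, a mean of 1.01% ± 0.0266 (SD, n = 2). Within the members, the rRNA-like loci held 42.7% (41.5 to 44.0) in replicate 1 and 54.7% (52.3 to 57.1) in replicate 2, and the remaining sites held 41.6% (40.4 to 42.9) and 32.0% (29.7 to 34.3). Small RNA genes were nearer to each other, with 7.77% and 7.35%. These intervals are Clopper-Pearson intervals and cover counting error only. A design of 2 samples in 1 group allows no test over samples, since the smallest exact two-sided p is 0.5.

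**Figure D1:**
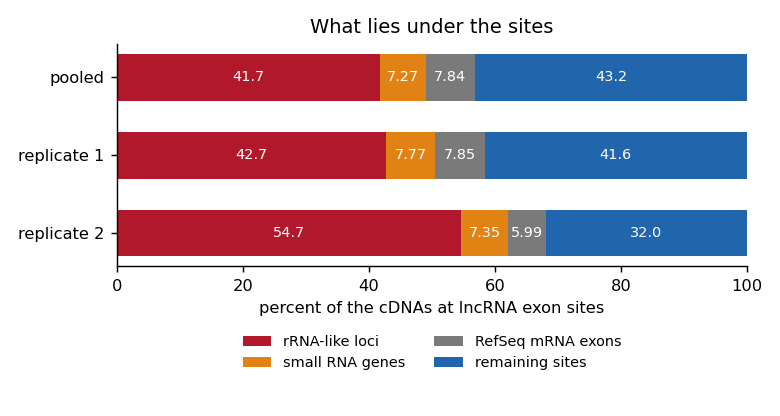
Percent of the cDNAs at lncRNA exon sites (x axis) by what else is annotated at the nucleotide, for the pooled list and each replicate. The rRNA-like loci took 42.7% in replicate 1 and 54.7% in replicate 2, and the remaining sites 41.6% and 32.0%.

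Gm42418 alone held 3279 cDNAs at 541 sites, 37.7% of the total, with 2424 in replicate 1 and 848 in replicate 2. RefSeq annotates the place as Rn18s-rs5, a pseudogene related to 18S rRNA, the RNA of the small ribosomal subunit, at chr17:39846354-39848202, and all 3279 cDNAs lay inside it. Its highest site, chr17:39847927, had 141 cDNAs, 101 in replicate 1 and 40 in replicate 2. The neighbouring nucleotide had 92 and 11, whereas the sites at positions 39847607 and 39847794 had 25 and 43, and 19 and 36. Single sites of Gm42418 therefore ranked differently in the replicates, and the latter pair had more cDNAs in the shallower replicate. Of the 10 highest member sites, 7 lay in Gm42418.

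Gm26917, the lincRNA just upstream that ends 13 nt before the rRNA-like pseudogene, held 348 cDNAs at 212 sites, 259 in replicate 1 and 74 in replicate 2. AY036118, the other rRNA-like locus on the list, had no site. The base composition around rRNA-like sites differed between the 2 loci. In the 31 nt around Gm42418 sites, U made up 22.8% of bases against 22.1% over all positions of its exon, and 24.8% of its sites were crosslinked at U. Around Gm26917 sites it made up 28.5% against 22.6%, and 42.0% of its sites were crosslinked at U, with 42.8% in replicate 1 and 50.9% in replicate 2. No window of either gene held 5 U in a row. Over all positions of their exons, such windows made up only 1.47% in Gm42418 and 0.871% in Gm26917. Reads may match several ribosomal DNA copies, and how they were placed was not stated in the sources, so counts at these loci are uncertain.

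Small RNA genes accounted for nearly all cDNAs of some leading lncRNAs. B930036N10Rik is annotated as an antisense gene, and 395 of its 407 cDNAs (97.1%) lay in a RefSeq gene for U5 spliceosomal RNA, a component of the spliceosome, with 311 in replicate 1 and 84 in replicate 2. Its highest site had 61 cDNAs, 50 in replicate 1 and 11 in replicate 2. All 73 cDNAs of B230208H11Rik (50 and 18) lay in a gene for tRNA-Leu, and all 35 of Gm10616 (26 and 7) in one for tRNA-Arg. In Gm17494, 33 of 54 cDNAs (28 and 5) lay in exon sequence of another tRNA-Arg gene. Only exons of small RNA genes were matched, so the other 21 (12 and 9), in the same cluster of 26 nt, counted as remaining sites. Whether they belong to the same tRNA gene was not tested. The windows printed above for the first pair of tRNA hosts lie inside those tRNA genes. Other tRNA and U5 gene copies exist in the genome, so which copy these cDNAs came from is uncertain.

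The host of microRNA 155, Mir155hg, held 89 cDNAs, 69 in replicate 1 and 11 in replicate 2. MicroRNA 155 is cut from an exon of this transcript and is known as a regulator of activated B cells. In the hairpin at chr16:84714140-84714204 there were 23 cDNAs, 21 in replicate 1 and 0 in replicate 2. Of these, 20 were at 1 nucleotide, chr16:84714142 (18 and 0), 1 nt before the first base of the mature 5′ strand. A site is placed 1 nt before the first base of its reads, so these cDNAs started at the first base of that strand. Whether they stopped at a crosslink or at the end of the mature microRNA was not tested. The mature sequence, from RefSeq, is printed to show where the site falls, with the seed (bases 2 to 8) in capitals.
mmu-miR-155-5p, chr16:84714143-84714165: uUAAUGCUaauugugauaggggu
The other 66 cDNAs of the host (48 and 11) were spread over 46 sites of its exons. No cDNA of replicate 2 was called in the hairpin. A 0 in these lists means that no site passed the FDR, not that no read was present.

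Other microRNA and small nucleolar RNA (snoRNA) hosts differed in where their sites lay. Mir17hg, which carries the miR-17-92 cluster, had 41 cDNAs (30 and 10), none in its 6 hairpins, and 31 of them lay in 1 stretch of 19 nt (21 and 10). Dleu2, the host of Mir16-1, had 145 cDNAs (102 and 25), with 0 inside the hairpin and 11 within 100 nt of it. Mir142hg had 4 cDNAs and Mir22hg 3, all in replicate 1 and none in a hairpin, and Mir99ahg and Mir124a-1hg had none. Members are exon sites, and the Mir142 hairpin lies outside the annotated exons of Mir142hg, so none of its member cDNAs could lie there. Which of the other hairpins lie within host exons is not given here. In Zfas1, which carries snoRNAs of the SNORD12 family, 2 annotated snoRNA genes held 37 (27 and 10) and 36 (25 and 0) of its 140 cDNAs. The snoRNA host 2410006H16Rik had 126 cDNAs (97 and 25), of which 116 lay in 1 cluster of 74 nt near its end (89 and 25). All 126 lay within 5 kb downstream of a coding gene on the same strand.

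Among exons that RefSeq gives to an mRNA, Cct6a led with 212 cDNAs (148 and 48). It encodes a subunit of the cytosolic chaperonin and is a processed_transcript in the GENCODE release used. Of these, 188 lay in 1 cluster of 98 nt (131 and 48), and 88.7% lay in the last 20% of the transcript. Ifi30, which encodes a lysosomal thiol reductase used in antigen processing, had 102 cDNAs (86 and 14). Gm42743 had all 92 (67 and 25) in 1 cluster of 24 nt in the histone H2B gene H2bc18, 53 of them at 1 nucleotide (37 and 16). Gm42547, within the zinc finger gene Zfp800, had 80 cDNAs, 48 in replicate 1 and 0 in replicate 2, and Ndufb1-ps, which RefSeq names Ndufb1 after a subunit of respiratory complex I, had 59 (49 and 8). For these genes the annotation decides whether a site counts as lncRNA or mRNA binding. RefSeq matched 117 of the 217 genes by name and place, and called 101 of them lncRNA (3082 cDNAs), 11 protein-coding (488) and 5 pseudogenes of either kind.

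Of the remaining sites, 2 lincRNAs held 24.3% of cDNAs and 10 genes 51.8%. 1700020I14Rik, which RefSeq names Oip5os1 and which is known as Cyrano, a conserved lncRNA that directs the decay of the microRNA miR-7, had 460 cDNAs at 242 sites, 295 in replicate 1 and 84 in replicate 2. AU020206 had 351 cDNAs in replicate 1 and 91 in replicate 2, at 244 pooled sites. Both were bound at many places. The richest cluster of 1700020I14Rik, with neighbouring sites no more than 15 nt apart, held 54 of its cDNAs (46 and 8), and that of AU020206 held 102 (76 and 26).

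2900097C17Rik, which RefSeq names Norad, is a cytoplasmic lncRNA known for binding Pumilio proteins and for a role in chromosome stability. It had 154 cDNAs (123 and 26), and 107 of them (81 and 26), or 69.5%, lay in 1 stretch of 47 nt of a 4915 nt transcript. All 26 called cDNAs of replicate 2 were in that stretch. The window printed for this gene is centred on its highest site, which had 13 cDNAs (12 and 1).

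AI504432 had 145 cDNAs (99 and 12) in 24 clusters, of which the largest held 19. Gimap1os, transcribed opposite to the GTPase gene Gimap1, had 143 (114 and 22), 76 of them in 51 nt (60 and 16). Tug1, a broadly expressed lncRNA linked to the p53 response, had 127 (96 and 9) in 13 clusters. A530030E21Rik had 104 (83 and 17). Gm20559 (71 and 8), Brip1os (65 and 18), BE692007 (58 and 12) and AI662270 (44 and 11) had between 65 and 87 pooled cDNAs each. Replicate 1 had more cDNAs than replicate 2 for each of these genes, as over all low-FDR sites.

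**Figure D2:**
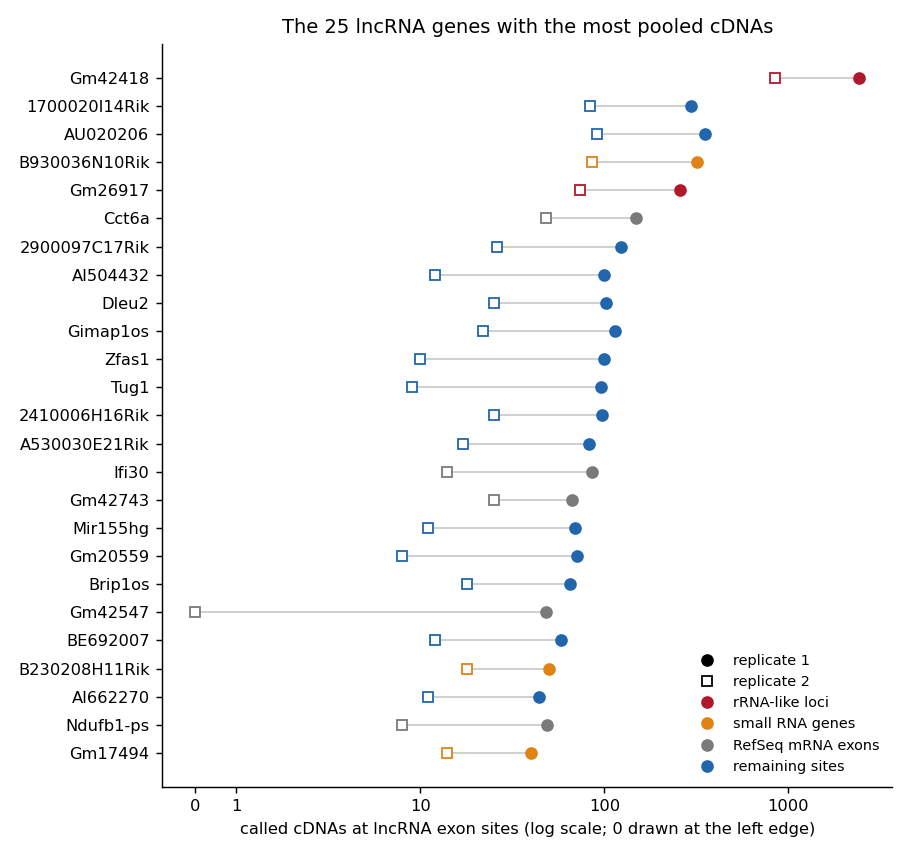
Called cDNAs (x axis, log scale) of the 25 lncRNA genes with the most pooled cDNAs, in replicate 1 (filled circles) and replicate 2 (open squares), with colours for the kind of annotation that holds most of the gene's sites. Gm42418 stood at 2424 and 848, and Gm42547 had 48 and 0.

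Per kilobase of exon, the order of the genes changed. Gm42418 still led with 1791 cDNAs per kb. 2410006H16Rik came next with 273 in 462 nt of exon, then AU020206 with 142, while 1700020I14Rik fell to 55.4, 2900097C17Rik to 31.3, Tug1 to 13.0 and Dleu2 to 12.8. Among the 25 genes with at least 50 cDNAs, the richest cluster held a median of 50.1% of the cDNAs of the gene, from 11.7% in 1700020I14Rik to 100% in Gm42743 and Gm17494. It held more than 50% in 13 of the 25 genes. A single nucleotide held more than 50% in 1 gene, Gm42743.

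**Figure D3:**
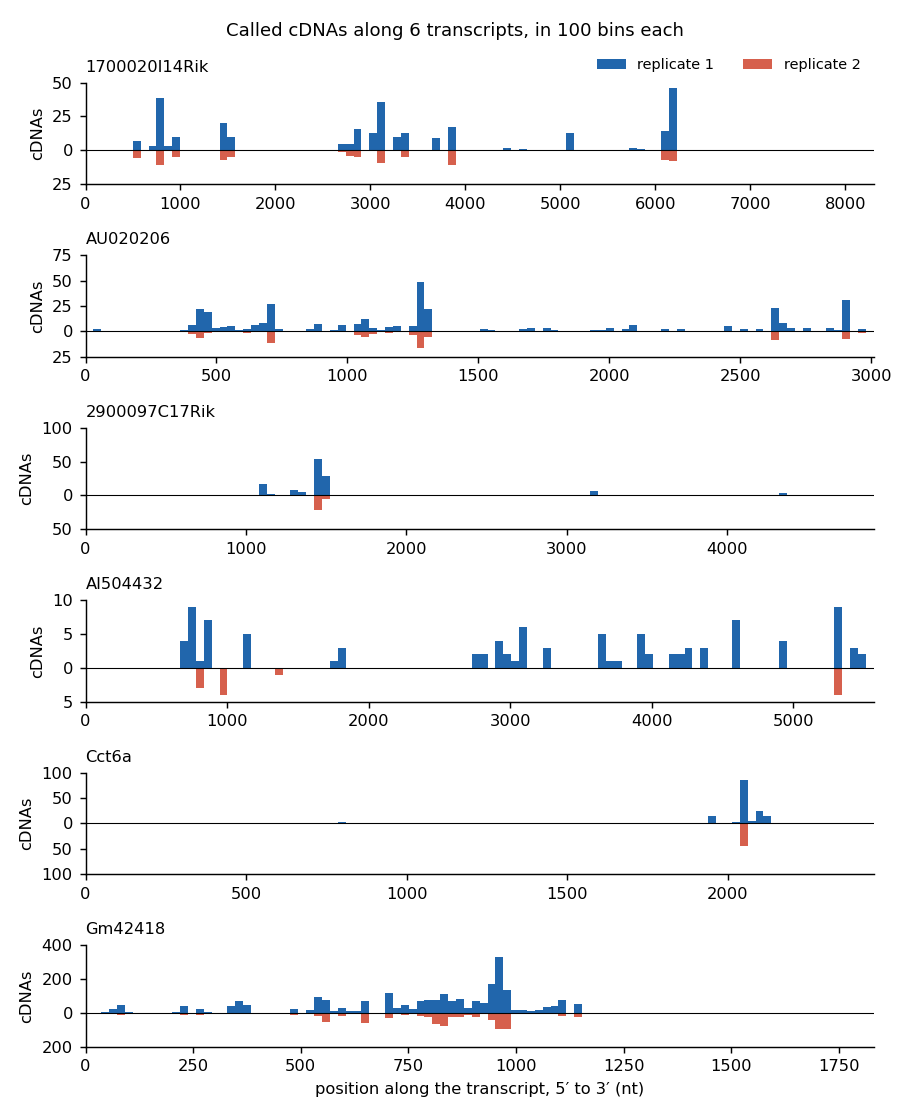
Called cDNAs (y axis) along 6 transcripts from 5′ to 3′ (x axis, nt), in 100 bins each, with replicate 1 above and replicate 2 below the line. Sites were spread in 1700020I14Rik, AU020206 (443 of its pooled cDNAs lie on the transcript drawn) and AI504432, whereas 69.5% of the cDNAs of 2900097C17Rik and 88.7% of those of Cct6a lay in 1 cluster.

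The remaining sites lay in U-rich sequence. In the 31 nt around them U made up 45.7% of bases, against 29.3% over all positions of the same exons, and the values were 45.8% against 29.2% at sites of replicate 1 and 49.0% against 29.0% at sites of replicate 2. At 76.6% of these sites the linked base was U, with 76.3% (74.2 to 78.3) in replicate 1 and 84.7% (80.8 to 88.1) in replicate 2. A run of 5 U (searched as TTTTT on the strand of the site) was in 37.8% of windows, against 7.25% of windows of the same length over all positions of those exons. The pentamer ATTTA, searched in the same way on the strand of the site alone, was in 13.4% against 5.18%, and 1 window can hold both.

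The 323571 sites in 3′UTRs of coding genes gave like values for U content and the crosslinked base. U made up 44.7% of bases around them against 31.3% over the same 3′UTRs, and the crosslinked nucleotide was U at 73.9%. At 3′UTR sites of replicate 1 it was U at 73.7%, and at those of replicate 2 at 84.7%. Runs of 5 U were in 38.8% of 3′UTR windows against 10.3% over all positions, and this background was 7.25% for the remaining sites. In replicates 1 and 2 such runs were in 39.5% and 54.7% of 3′UTR windows, and in 38.5% and 45.7% of windows at remaining sites. Sites in small RNA genes had 34.1% U around them, and 29.8% of their windows held 5 U in a row. Over all exons of the host lncRNA genes these values were 26.7% and 6.62%. The sequence of the small RNA genes alone was not measured. Of the sites in small RNA genes, 46.8% were crosslinked at U, with 47.7% in replicate 1 and 65.7% in replicate 2. Over all 3507 members the values were 40.7% against 27.7%, with U at 65.5% of crosslinked nucleotides.

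**Figure D4:**
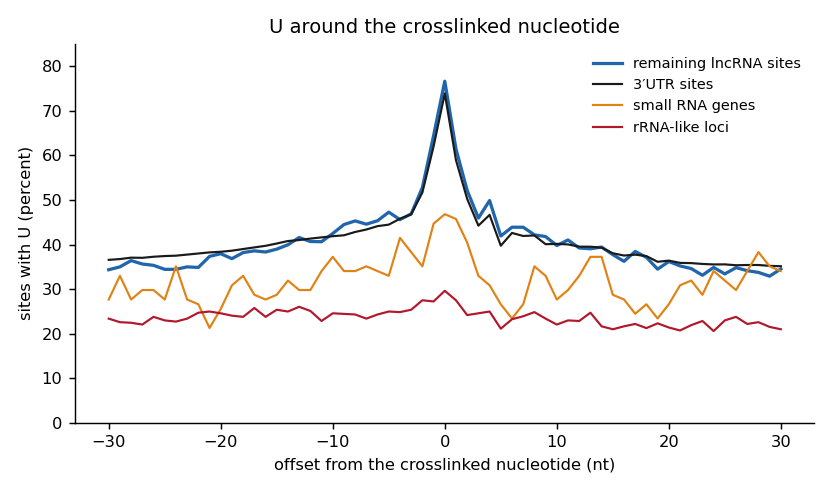
Percent of sites with U (y axis) at each offset from the crosslinked nucleotide (x axis, nt) for the remaining lncRNA sites, 3′UTR sites, sites in small RNA genes and rRNA-like loci. The peak at offset 0 reached 76.6% and 73.9% for the first pair, 46.8% in small RNA genes and 29.6% in rRNA-like loci.

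The same held gene by gene. Of 15 genes with at least 50 cDNAs at remaining sites, 15 had more U around their sites than in their exons, with the smallest gap in Zfas1 (39.1% against 28.7%) and the largest in Gimap1os (55.6% against 30.6%). At sites of replicate 2, all 14 genes that had such sites did so too. U at the crosslinked nucleotide ran from 65.2% in AU020206 to 88.4% in Tug1. A run of 5 U was in 83.3% of the windows of Gimap1os and 64.0% of those of Tug1, but in 0 of the windows of 2410006H16Rik and Brip1os. The U-rich stretches often lay in sequence that the reference genome marks as repeat or low complexity. This was so for 43.7% of remaining sites against 20.5% of all positions of the same exons, for 38.8% against 16.7% in 3′UTRs, and for 76.9% and 76.2% of the cDNAs of A530030E21Rik and Gimap1os. Whether reads in such sequence were placed correctly was not tested.

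The remaining sites had no single place along the transcript. Over 5 equal parts of the transcript from 5′ to 3′, they held 20.5%, 20.7%, 16.8%, 18.3% and 23.7% of cDNAs. The last of these parts held 24.0% in replicate 1 and 21.3% in replicate 2. Single genes departed from this, since 89.7% of the cDNAs of 2410006H16Rik lay in the last 20% but 2.60% of those of 2900097C17Rik and 1.96% of those of 1700020I14Rik. Most of the remaining cDNAs, 78.6%, lay away from coding genes. Another 7.89% lay in an intron of a coding gene on the same strand and 4.48% within 5 kb downstream of one, where an unspliced or extended mRNA cannot be told apart from the lncRNA. The downstream sites held 168 cDNAs, and all 126 of 2410006H16Rik were among them. Sites antisense to a coding exon held 3.52% and those antisense to a coding intron 5.54%.

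By GENCODE type, 78 lincRNA genes held 5629 cDNAs, most of them on Gm42418, 47 processed_transcript genes 1580 and 36 antisense genes 870. The 45 TEC genes, which the annotation lists as still to be experimentally checked, held 463. There were 6 bidirectional_promoter_lncRNA genes with 104, 1 sense_overlapping gene with 27 and 4 sense_intronic genes with 21.

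The lists of known lncRNAs held both bound and uncalled genes. Of 42 annotated members of 7 lists, 18 had a site and 13 had one in each replicate, while 1.63% of all 13352 annotated lncRNA genes had a site. The lists were drawn up with earlier results known, so this is no independent comparison. Of 12 genes of X inactivation and imprinting, Ftx had 30 cDNAs (12 and 3), Jpx 5 (3 and 0) and Meg3 3 (3 and 0), while Xist, Tsix, Kcnq1ot1, Airn, H19, Rian, Mirg, Peg13 and Nespas had none. Of the snoRNA hosts, 1110038B12Rik had 30 (19 and 4) and Dancr and Epb41l4aos none. In the p53 and DNA damage list, Lncpint had 4 (4 and 0) and Trp53cor1 and Pvt1 none, besides Tug1 and 2900097C17Rik above. Of 5 immune lncRNAs only Gm14005 had cDNAs, 4 in all (2 and 2), and Ptgs2os2, Mirt1, Mirt2 and Nron had none. Of 5 further lncRNAs listed together, 1700020I14Rik alone had sites, and Miat, Rmst, Firre and Dnm3os had none. Mir100hg was not in the annotation under that name. Transcript levels were not measured, the extracts were cytoplasmic, and the low-FDR list held 54.8% of all crosslinked cDNAs. A gene without a site may therefore be unbound, absent from these cells, kept in the nucleus or bound below the FDR limit.

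Few lncRNA genes were called in both replicates. A site was called in each replicate for 60 of 217 genes (27.6%), against a background of 59.8% of 8625 genes of any type with an exon site. The lncRNA genes were also thinly covered, with a median of 5 pooled cDNAs against 25. Among genes with at least 10 pooled cDNAs, 50 of 76 lncRNA genes (65.8%) were called in both, against 82% of 5996 genes of any type. Coverage above that minimum was not matched between these sets. Replicate 1 had a site in 171 genes and replicate 2 in 71, and 35 genes had a site in the pooled list alone. A count of 10 or more cDNAs in each replicate was reached by 24 genes. At the other end, 141 genes had fewer than 10 pooled cDNAs and held 546 in all.

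Site by site, 537 of the 3507 members (15.3%, 14.1 to 16.5) were called at the same nucleotide in both replicates, against a background of 13.7% of all pooled sites. The share was 34.7% in the rRNA-like loci and 9.15% at the remaining sites. Of the member sites of replicate 2, 67.9% were also called in replicate 1. A count of 1 cDNA made up 71.8% of the remaining sites and 36.7% of the rRNA-like ones. The coverage and the overlap thus moved together, and their relation was not tested.

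Across the 182 genes with a called cDNA, the counts of the replicates had a Pearson correlation of 0.740 on the log2(count + 1) scale and a Spearman correlation of 0.514. This is across genes that share both libraries and their depth, so they are not independent points. Of all called cDNAs at member sites, replicate 2 gave 21.2%, against 20.6% at all low-FDR sites. Of 24 genes with at least 50 called cDNAs, only Gm42418 had an interval above that level, with 25.9% (24.4 to 27.5), against a background of 12.9% of 2835 genes. AI504432 (10.8%), Zfas1 (9.17%), Tug1 (8.57%) and Gm20559 (10.1%) had intervals below it, against a background of 19.4%. Both counts, 1 and 4 of 24 genes, made up no larger a share than the background.

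**Figure D5:**
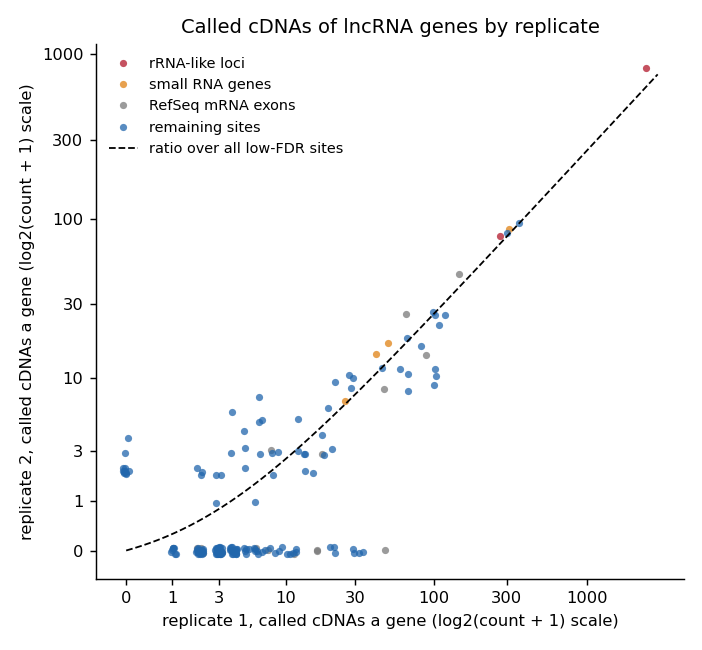
Called cDNAs of each of 182 lncRNA genes in replicate 1 (x axis) and replicate 2 (y axis), on log2(count + 1) scales with a small random shift to separate equal points. The dashed line is the ratio of the replicates over all low-FDR sites, and many genes with few cDNAs in replicate 1 lie at 0 in replicate 2.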

How the data were processed

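Per the labels and the methods, iCLIP reads of 2 samples were processed by the authors in the iCount pipeline, with mapping by Bowtie (version not given in the sources used here) to mm9 with Ensembl 59. The deposited values are signed scores, unique cDNAs per crosslinked nucleotide with a minus sign for the minus strand, not scaled to depth. PCR duplicates were collapsed by random barcodes. The authors kept sites with FDR under 0.05, from 100 permutations and a neighbourhood of 15 nt, per replicate and for the sum, which they lifted to mm10. How reads matching several places were treated was not stated.

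No coordinates were converted. The mm9 and mm10 pooled lists pair row by row, with the same strand in all 422150 rows, and a replicate's count was that of the same mm9 nucleotide. For the 58002 sites that both replicates called, the pooled count was always their sum. The pairing covered 98.9% and 99.1% of the cDNAs of replicates 1 and 2. "Called" cDNAs are those in a replicate's own list. They fall short of the pooled count by 729 over the members, because the summed list also holds sites that neither replicate passed alone.

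Sites were annotated with GENCODE M21 exons, then with RefSeq exons of mRNAs and small RNAs on GRCm38. Composition used 31 nt centred on each site, without weights. Clusters joined sites of a gene no more than 15 nt apart. Position was along the longest transcript that held the site. The tools were pysam 0.24.0, scipy 1.17.1, pandas 2.3.3, numpy 2.4.6 and matplotlib 3.10.9 in Python 3.11.15, and the assignment of sites and positions was tested on simulated data. Shares are given with exact 95% intervals, which cover counting error only.

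The genes named are the 25 with the most pooled cDNAs, those of the 10 highest sites, and 7 gene lists. The sequence at 1 site is not reported here. The members and lists were chosen with earlier results of these data known. The alternatives were each replicate alone, minimum counts, other annotation exclusions, window and distance settings.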

Additional observations from a re-analysis of the deposited data

How the results depend on the processing

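No paired analysis was possible because both samples belong to 1 group. Each of 8 results was recomputed, giving 68 values, of which 22 stayed within the spread of the replicates (SD), or within the counting interval for the share of sites called in both replicates, or within 1.5 times for gene counts. None of these results has a test. A single replicate gave a member share of cDNAs of 0.993% to 1.03%, 71 to 171 genes with a site, 67.4% to 78.1% of cDNAs on the 10 leading genes, 38.2% to 39.7% U around sites, 63.1% to 64.1% U at the crosslinked nucleotide, 6.11% to 6.69% of cDNAs inside or downstream of coding genes (7.30% in the pooled list), and 10.6% to 14.03% in the last 20% of the transcript (14.2% pooled).

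In the same order, sites with at least 5 pooled cDNAs gave 1.37%, 30 genes in both replicates, 89.0%, 31.7%, 57.4%, 4.40% and 9.29%, with 76.0% of sites called in both replicates. Sites with at least 2 gave 1.09% of cDNAs, 76.6% on leading genes, 37.1% U, 5.72% inside or downstream of coding genes and 41.5% called in both. Leaving out the rRNA-like loci gave 0.584%, 47.1% on leading genes, 45.1% U, 75.3% U at the crosslink, 12.5% inside or downstream of coding genes, 24.4% in the last 20% and 10.0% of sites in both replicates. Putting Malat1, Neat1, Gas5 and the Snhg genes back gave 1.40% of cDNAs, 64.1% U at the crosslink, 6.23% and 18.8% in the last 20%. The remaining sites alone, an alternative chosen after seeing the data, gave 0.433%, 51.8%, 45.7%, 76.6%, 12.4%, 23.7% and 9.15%, with 49 genes in both replicates.

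A window of 21 nt gave 42.9% U. A limit of 1 kb downstream gave 4.52% and one of 10 kb 8.63%. A minimum of 10 cDNAs in each replicate left 24 genes. Counting each site once put 18.7% in the last 20%, and sites of both replicates within 15 nt covered 47.4% of members. The cause of these shifts was not tested, other than that stricter counts and left-out loci change which genes enter. Leaving out protein-coding exons on either strand left all 8 results within the limits above. The depth of replicate 2, with 165081 cDNAs, limits what could be called in both, and no level below the FDR was read as absence.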

Other observations

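The lncRNA Norad (2900097C17Rik) is known for many copies of the Pumilio motif, written here as TGTANATA and searched on its own strand. Its exon held 11 matches, and 7.91% of its nucleotides lay within 15 nt of one. Of its 154 cDNAs, 9 (5.84%) lay as near, with 7.32% of those in replicate 1 and 0 of the 26 in replicate 2. The share of cDNAs near a match was thus close to the share of nucleotides and not above it. Of the 154 cDNAs, 107 lay in the stretch of 47 nt already described.

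AW112010, a lincRNA chosen here after its values were seen, had 35 cDNAs at 11 sites, 33 in replicate 1 and 0 in replicate 2. Its highest site had 14 cDNAs (13 and 0). At remaining sites, AI506816 had 36 pooled cDNAs (25 and 0), AA465934 had 38 (32 and 0) and Zfas1 67 (47 and 0), although Zfas1 had 10 called cDNAs of replicate 2 inside a snoRNA.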
